A study of Mus musculus with 41 samples.

Results

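The interferon-stimulated genes described here are 36 genes, listed by symbol, that cells switch on in response to interferon. All 36 were found among the 47480 gene symbols measured by RNA-seq in 41 Balb/c mouse mammary tumors. The tumors were 28 PLK2null tumors (Plk2-/-; p53-/-) and 13 p53null tumors (p53-/-, with Plk2 intact), so the tumor cells of both groups were p53-/- by genotype. The PLK2null tumors arose from mammary epithelial cells transplanted into the fat pads of wild-type Balb/c mice. The labels describe all tumors as orthotopic and untreated in syngeneic hosts, and give neither the hosts' age nor which tumors were passaged. Single tumors are named by genotype and tumor number. T11 of the p53null group was claudin-low, and so were PLK2null-743, PLK2null-733 and PLK2null-732. Claudin-low tumors have little of the tight-junction claudins and E-cadherin of epithelial cells.

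Interferons are secreted proteins that cells make on sensing viral or misplaced nucleic acid. Type I interferons bind the receptor pair Ifnar1 and Ifnar2, whose kinases Jak1 and Tyk2 activate STAT factors such as Stat2, which join Irf9 and bind interferon-stimulated response elements (ISRE) in promoters. Interferon gamma, made mostly by T cells and natural killer cells, acts through its own receptor at gamma-activated sequences (GAS). In tumors both the malignant cells and the infiltrating host cells can express these genes.

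Values are those the authors deposited, scaled to an upper quartile of 1000 among the genes detected in each tumor, and they are not corrected for gene length, so levels are compared between tumors and not between genes. From the value that 1 read takes, the libraries held about 29409598 to 70868089 reads, with a median of 39053967 in the PLK2null and 58042747 in the p53null group. The level that 3 reads give lay between 1.16 and 2.45, and no member was at or under it in any tumor. Plk2 ranged from 36.6 to 553 in the PLK2null and from 186 to 8028 in the p53null tumors. The groups overlapped through the library labelled p53null-7435, which had the lowest Plk2 of its group and is left out as an alternative below. Trp53 transcripts were counted in both groups, at 1563 to 3914 in the PLK2null and 349 to 5035 in the p53null tumors. Their source was not tested. Cldn3, a defining claudin, lay at 1.13 to 19.3 in the 3 claudin-low PLK2null tumors and 19.9 in T11, against at least 608 in the other PLK2null tumors. The titles of the p53null libraries alone carry a second number series, so genotype and any difference in library handling cannot be told apart. In whole tumors, fewer cells of a type and less RNA per cell cannot be told apart either.

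Promoters of 27 members were found in RefSeq (build GRCm38.p6) as windows of 300 bases around the transcription start. The ISRE core was searched as GAAANNGAAA on both strands and the GAS core as TTCNNNGAA, which reads the same on both strands. The 27 members had 31 such promoters. An ISRE core was present in 15 of the 31 (48.4%), each of a different member, against 3.44% of all 32851 promoters, and a GAS core in 6 (19.4%) against 8.3%. A GAS core overlapped an ISRE core in 1 member, Bst2, the gene of the virus-tethering protein. The promoters of 5 members are printed from 150 to 21 bases before the start, 5′ to 3′ on the gene's own strand, with matched cores in capitals. Rsad2, Oas3 and Irf1 are shown because they differed in the comparisons below. Isg15 and Ifit1 are shown as textbook interferon targets, picked after their values were seen, and their cores are repeated. Isg15 lies on the minus strand at chr4:156200839-156200968, Ifit1 on the plus strand at chr19:34640739-34640868, Rsad2 on the minus strand at chr12:26456473-26456602, Oas3 on the minus strand at chr5:120777680-120777809 and Irf1 on the plus strand at chr11:53769864-53769993.
Isg15: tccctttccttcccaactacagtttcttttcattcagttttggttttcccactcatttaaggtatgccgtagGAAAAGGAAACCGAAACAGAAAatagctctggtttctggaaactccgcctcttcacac
Ifit1: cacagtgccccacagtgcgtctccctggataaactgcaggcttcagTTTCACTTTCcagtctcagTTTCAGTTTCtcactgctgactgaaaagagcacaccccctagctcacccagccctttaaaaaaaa
Rsad2: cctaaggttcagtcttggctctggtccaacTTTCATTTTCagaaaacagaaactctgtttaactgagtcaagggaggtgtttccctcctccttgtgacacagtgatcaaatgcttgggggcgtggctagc
Oas3: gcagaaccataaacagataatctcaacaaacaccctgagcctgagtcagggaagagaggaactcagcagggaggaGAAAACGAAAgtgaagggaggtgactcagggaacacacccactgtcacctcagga
Irf1: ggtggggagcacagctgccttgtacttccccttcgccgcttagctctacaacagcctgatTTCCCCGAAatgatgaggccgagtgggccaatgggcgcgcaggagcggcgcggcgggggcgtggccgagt
Isg15 held 3 overlapping ISRE cores, starting 78, 72 and 66 bases before the start site, and Ifit1 held 2, starting 104 and 85 bases before it. Rsad2 and Oas3 held a single ISRE core each, at 120 and 75 bases before the start. The capitals in Irf1 mark a GAS core at 90 bases before the start. A match is a description of the letters and was not tested for binding.

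The program was a graded property of single tumors. For each tumor a program score was taken as the mean over the 36 members of log2(value + 1) minus that member's median over the 41 tumors, so 1 unit stands for a doubling on average. Scores ran from -2.90 to 2.13. Of the 41 tumors, 7 scored above 1 and are called raised, 8 scored below -1 and are called low, and 26 lay between. The score is a description of each tumor and carries no test.

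**Figure D1:**
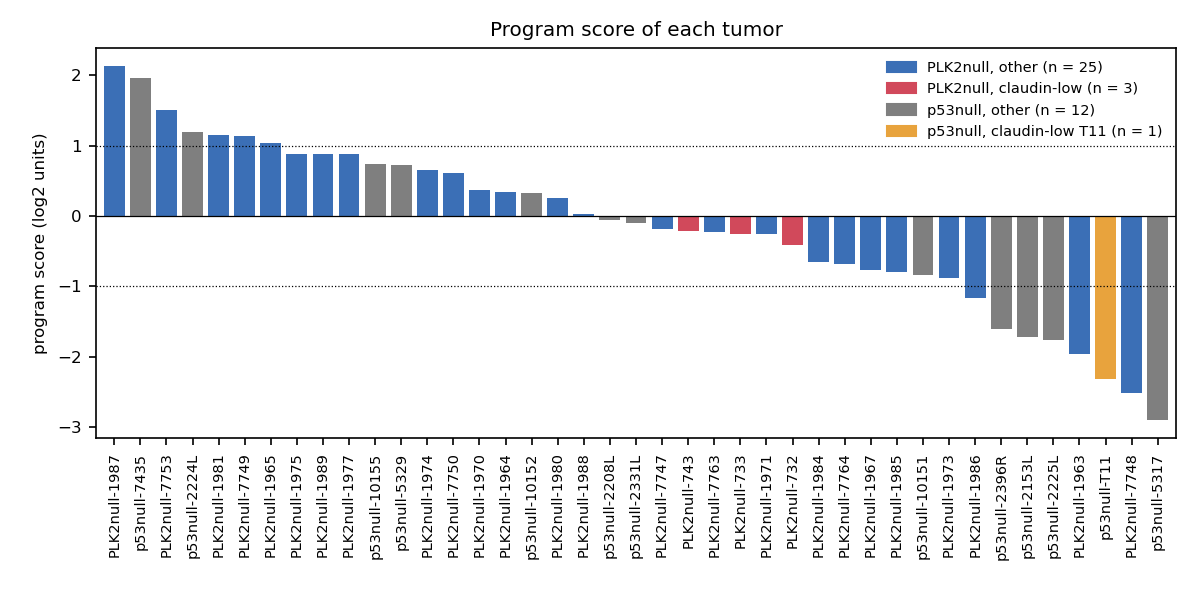
Program score of each of the 41 tumors, ordered from highest to lowest, with bars colored by genotype and claudin-low state and dotted lines at 1 and -1. PLK2null-1987 stands highest at 2.13 and p53null-5317 lowest at -2.90, and both genotypes appear at both ends.

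PLK2null-1987 had the highest score, 2.13, with 36 of 36 members above their medians. Oas3, an oligoadenylate synthetase that activates RNase L against viral RNA, stood at 4514 there against a median of 408. Cxcl9, a chemokine that draws activated T cells, was at 3708 against 343. The translation inhibitor Ifit2 was at 6047 against 642, and the guanylate-binding GTPase Gbp2 at 8514 against 1097. Each level was at least 7.75 times the median on the scale of value + 1. PLK2null-1987 was the highest of all 41 tumors for 17 members.

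The library labelled p53null-7435 scored 1.96 and was the highest for another 13 members. Its 4 farthest members were Ifit3 at 7478, Ifit1 at 6557, Cxcl9 at 3050 and Isg15 at 7448, against medians of 544, 705, 343 and 879. Ifit1 binds foreign RNA and blocks its translation, and Isg15 is a ubiquitin-like tag attached to proteins. Irf7, the factor that amplifies interferon production, reached 22500.5 in it, and the next tumor, PLK2null-1987, had 10183. Only Mb21d1 (158) and Tmem173 (998) were below their medians of 246 and 1413 in this tumor.

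PLK2null-7753 scored 1.51, with 36 of 36 members above the median and Oas3 at 2730, Oasl2 at 13718, Mx1 at 1520 and Ifi44 at 8389. The other p53null tumor of the raised set, p53null-2224L, scored 1.19, with Isg15 at 4995, Ifit1 at 3747, Oas3 at 2040 and Ifit3 at 2521. Its Plk2 level was 6090, so a raised program occurred in a tumor with high Plk2. PLK2null-1981 scored 1.14, led by Oas3 (2312), Zbp1 (4009), Oasl2 (11255) and Oas2 (2812). PLK2null-7749 scored 1.13, led by Oas3 (2075), Oas2 (2512), Mx1 (1093) and Ifit1 (2420). PLK2null-1965 scored 1.04, just over the line, led by Oas2 (5457), Oas3 (2368), Isg15 (3975) and the de-conjugating protease Usp18 (3504). Oas3 was among the 4 farthest members in 6 of these 7 tumors. Just under the line were PLK2null-1975, PLK2null-1989 and PLK2null-1977, at 0.89, 0.88 and 0.88.

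At the other end, no member was lost altogether: the lowest value of any member in any tumor was 10.3, for Cxcl10 in PLK2null-7748. At the level of the whole tumor the program was therefore low and not silent. Which cells gave the remaining signal was not tested. In p53null-5317, score -2.90, 36 of 36 members were below their medians. Oas2 stood at 20.9 against a median of 687, Cmpk2 at 23.3 against 566, Oas3 at 16.7 against 408 and Usp18 at 44.2 against 867, which is 19.2 to 31.4 times lower on the scale of value + 1. It was the lowest of the 41 tumors for 18 members. In PLK2null-7748, score -2.52, 36 of 36 members were also below the median, with Cxcl10 at 10.3 against 280, Rsad2 at 37.7 against 823, Ifit3 at 36.4 against 544 and Cxcl9 at 27.1 against 343. PLK2null-7748 was the lowest for 9 members.

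The claudin-low p53null tumor T11 scored -2.31. Cmpk2 was at 46.3, the pro-apoptotic Xaf1 at 203, Oasl2 at 217 and Rsad2 at 72.7, each at least 11.2 times under its median. A single member was above its median in T11, Tmem173 at 3005 against 1413. PLK2null-1963 scored -1.95 with none above the median, and was farthest down in Usp18 (75.4), Oas3 (41.5), Rsad2 (93.6) and Oas1a (106). Among the other p53null tumors, p53null-2225L, p53null-2153L and p53null-2396R were low. p53null-2225L scored -1.76, with Rsad2 at 76.9, Xaf1 at 275, Usp18 at 127 and Ifit1 at 105. p53null-2153L scored -1.72, with Gbp2 at 91, Rsad2 at 76.6, Ifit2 at 81.5 and Cmpk2 at 93.5. p53null-2396R scored -1.60, with Oas2 at 43.9, Rsad2 at 70.2, Mb21d1 at 32.7 and Cxcl9 at 53.6. PLK2null-1986, score -1.17, had the lowest Isg15 of all tumors, 122 against a median of 879, with Usp18 at 129, Xaf1 at 406 and the GTPase Igtp at 216. The nearest tumor above the line was PLK2null-1973, at -0.88. Rsad2, which makes an antiviral nucleotide, was among the 4 farthest members in 6 of the 8 low tumors.

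**Figure D2:**
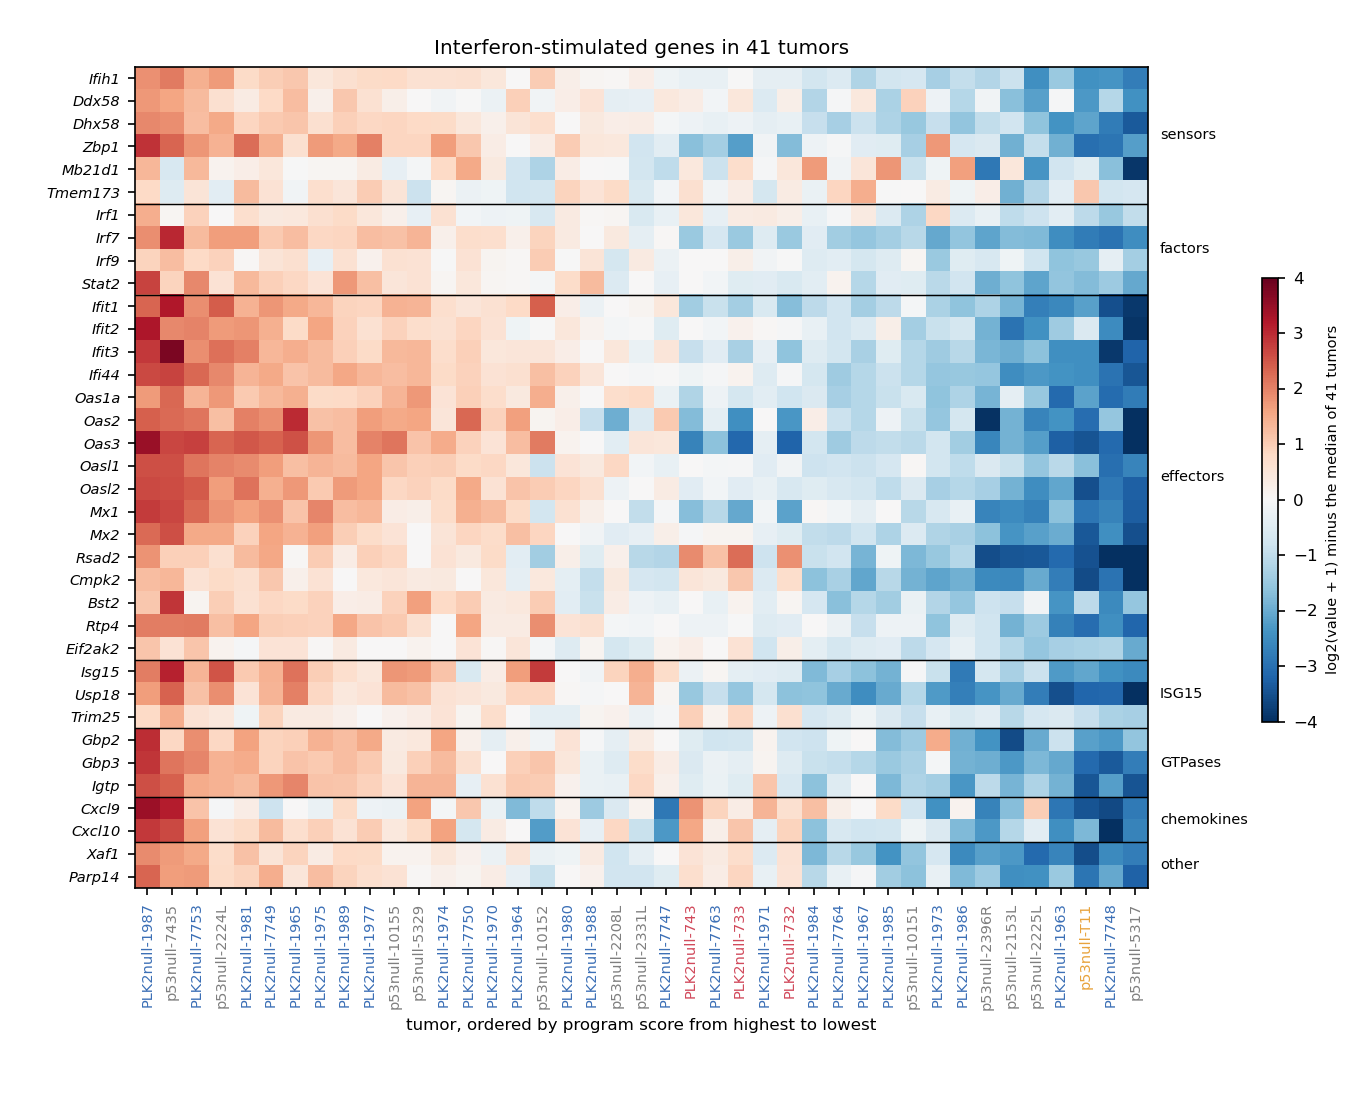
Heatmap of the 36 members (rows, grouped by role) in 41 tumors (columns, ordered by program score, names colored blue for PLK2null, grey for p53null, red for claudin-low PLK2null and orange for T11), colored by log2(value + 1) minus the median of 41 tumors. Most rows grade from red to blue together, and Mb21d1, Tmem173, Cxcl9 and, in the claudin-low PLK2null tumors, Rsad2 depart from the column order.

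Of the 36 members, 30 were above their median in all 7 raised tumors and below it in all 8 low tumors, a description that the score itself favors. The 6 exceptions were Mb21d1, Tmem173, Cxcl9, Irf1, Eif2ak2 and Trim25. Mb21d1 encodes cGAS, which makes a cyclic dinucleotide on meeting DNA in the cytosol, and Tmem173 encodes STING, which receives it. In the low tumor PLK2null-1986 Mb21d1 was at 772, against its median of 246, and its highest levels were in the similar tumors PLK2null-1985 (833), PLK2null-1984 (799) and PLK2null-1986. Tmem173 was below its median in 3 raised tumors (p53null-7435, p53null-2224L and PLK2null-1965) and above it in 2 low tumors (p53null-2396R and T11). Cxcl9 was at 681 in the low tumor p53null-2225L and at 192 in the raised tumor PLK2null-7749, on either side of its median of 343.

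Immune markers differed between the ends of the order. The summed level of 7 macrophage markers was 27905 in PLK2null-1987 and 28393 in p53null-7435, against 9971 in p53null-5317 and 5827 in PLK2null-7748, the lowest of the 41. It was 8263 in the raised tumor PLK2null-1965 and 30172 in the low tumor PLK2null-1986, so the order was not the same. The 6 T cell markers summed to 473 in PLK2null-1987, 663 in p53null-7435 and 1790 in PLK2null-1981, against 71.3 in p53null-5317 and 70.0 in PLK2null-7748, but to 62.2 in the raised tumor PLK2null-7749. The 6 cytotoxic lymphocyte markers were highest in p53null-7435, at 687, and lowest in p53null-5317, at 6.03. They were at 64.8 in the raised tumor PLK2null-7753 and at 116 in the low tumor p53null-2225L, against the order. The 4 B cell markers reached 4616 in PLK2null-1981, the maximum of all tumors, but were at 13.5 in PLK2null-1987 and 30.2 in p53null-5317. The part of these cells in the program was not tested.

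Interferon transcripts themselves were near the limit of detection. All 10 interferon genes examined had a mean under 10 and were not tested. Ifnb1, the interferon beta gene, was at 0 in 12 tumors and at or under the level of 3 reads in 27 of 41. Its highest value was 9.82 in PLK2null-1987, the tumor with the highest program score, where 3 reads correspond to 1.84. Ifng, the interferon gamma gene, was at or under 3 reads in 25 tumors and was also highest in PLK2null-1987, at 12.9. Ifna1 was at 0 in 41 of 41 tumors, which allows a level of up to 1.16 to 2.45. Ifna2, Ifna4 and Ifnl2 did not pass 3 reads in any tumor. Ifne reached 3.27, Ifnk 2.80, Ifnl3 2.52 and Ifnz 6.59.

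The members varied more than most genes. The median SD of log2(value + 1) over the 41 tumors was 1.45 for the 36 members and 0.76 for the 17208 genes with a mean of at least 10, and 31 of 36 members exceeded that median. The 6 most variable were Oas3 (SD 2.12), Oas2 (1.92), Rsad2 (1.79), Usp18 (1.75), Ifit1 (1.69) and Mx1 (1.65). In Balb/c, as in most laboratory strains, Mx1 carries a deletion and makes no working protein, so its level is read here as a response and not as a function.

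Among the sensors, Ifih1 and Ddx58, the RNA helicases MDA5 and RIG-I, ran from 132 to 3833 and from 504 to 8959, and their regulator Dhx58 from 53.4 to 2099. Zbp1, a sensor of Z-form nucleic acid that can trigger cell death, ran from 105 to 6241. Mb21d1 ran from 15.8 to 833 and Tmem173 from 369 to 3895. Among transcription factors, Irf7 ran from 361 to 22500.5 and Stat2 from 361 to 10147.5, while Irf1 (751 to 5792) and Irf9 (582 to 4213) moved within narrower limits, with SDs of 0.64 and 0.70.

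The effectors held the widest spans. Oas3 ran from 16.7 to 4514, a 271-fold span, and Oas2 from 20.9 to 5457, a 261-fold span. Their relatives Oas1a, Oasl1 and Oasl2 ran from 106 to 4535, from 59.5 to 2883 and from 217 to 15530.4. Ifit1 spanned 47.2 to 6557, Ifit2 41.5 to 6047 and Ifit3 36.4 to 7478. Ifi44, named for its induction by interferon, spanned 159 to 11198. Mx1 and Mx2 spanned 30.4 to 2139 and 28.1 to 1978. Rsad2 spanned 37.7 to 3861 and its chromosomal neighbor Cmpk2, a mitochondrial nucleotide kinase, 23.3 to 1430. Bst2 spanned 483 to 20797 and the receptor transporter gene Rtp4 132 to 5026. Eif2ak2, the kinase PKR that stops translation on binding double-stranded RNA, spanned only 437 to 3837.

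Isg15 ran from 122 to 7448 and Usp18 from 44.2 to 4429. Trim25, a ubiquitin ligase of the RIG-I route, had the smallest span of the 36, from 1398 to 9690, or 6.93-fold. The GTPases Gbp2, Gbp3 and Igtp, which attack the vacuoles of intracellular pathogens, ran from 91 to 8514, from 130 to 9886 and from 99.99 to 6491. The chemokines Cxcl9 and Cxcl10 ran from 27.1 to 3708 and from 10.3 to 2002. Xaf1 ran from 203 to 8945 and Parp14, an ADP-ribosyltransferase, from 223 to 10438. The 36 genes lie on 16 chromosomes of build GRCm38, and 15 of them have another member within 100 kb. Ifit1, Ifit2 and Ifit3 are clustered on chromosome 19, Oas2 and Oas3, Oasl1 and Oasl2, and Cxcl9 and Cxcl10 on chromosome 5, and Mx1 and Mx2 on chromosome 16. Ifit3 and Oas1a have near-identical copies, so their values are less certain. The same holds for the 6 members that overlap a protein-coding gene, Igtp (Irgm2), Irf1 (Gm17334), Irf7 (Phrf1), Irf9 (Rnf31), Rtp4 (Masp1) and Cxcl10 (Art3).

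Tumors alike in other genes did not share a fixed level of the program. The tumors were linked where their expression of the 2000 most variable other genes correlated at 0.9 or more, which joined 20 PLK2null tumors into 6 sets, called A to F here. The labels do not say which tumors share an origin. In set E, PLK2null-1987, PLK2null-7753, PLK2null-1989 and PLK2null-1988 scored 2.13, 1.51, 0.88 and 0.03, and Ifit1 ran from 598 to 3531. In this set 36 of 36 members were higher in PLK2null-1987 than in PLK2null-1988. Here and in sets C and D the tumors compared are the highest and lowest by a score made of these members. That choice favors such counts, and the share of all genes was not counted. In set C, PLK2null-1981, PLK2null-1977, PLK2null-1980 and PLK2null-7764 scored 1.14, 0.88, 0.26 and -0.69, and again 36 of 36 members were higher in the top tumor than in the bottom tumor. In set D, PLK2null-7750, PLK2null-1984, PLK2null-1985 and PLK2null-1986 scored 0.60, -0.65, -0.79 and -1.17, with 34 of 36 members higher in PLK2null-7750 than in PLK2null-1986. Set A, PLK2null-1965, PLK2null-1964 and PLK2null-7747, scored 1.04, 0.34 and -0.19. Set B, PLK2null-7749 and PLK2null-1975, differed by 0.25. The claudin-low set F, PLK2null-743, PLK2null-733 and PLK2null-732, differed by 0.20.

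**Figure D3:**
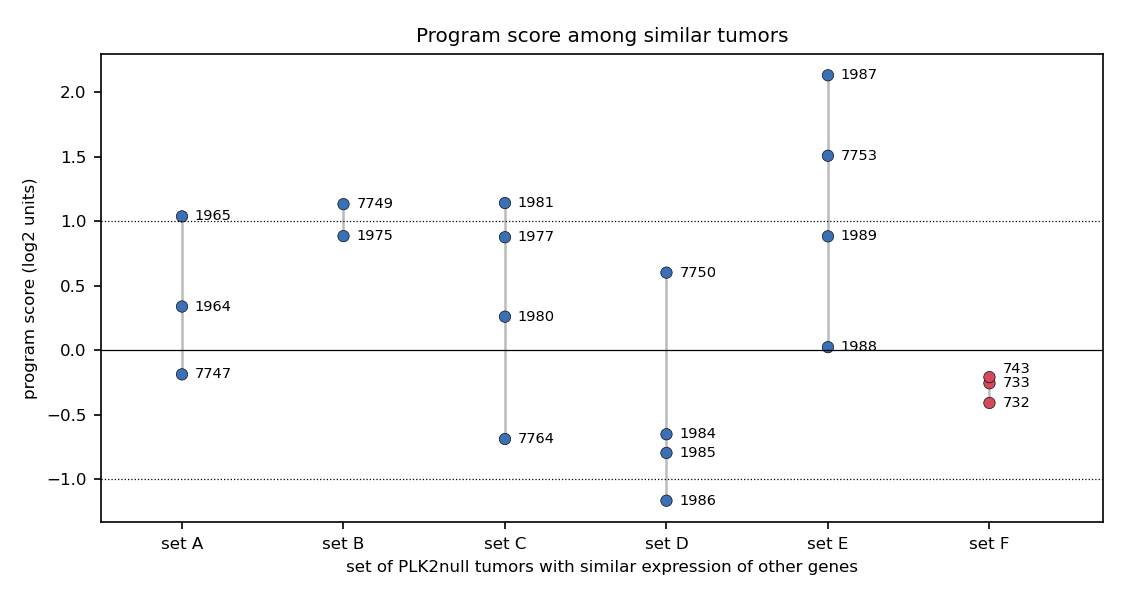
Program score (vertical axis, log2 units) of the tumors in the 6 sets of PLK2null tumors with similar expression of other genes, 1 point per tumor, red for claudin-low. Set E spans 2.11 units and sets B and F 0.25 and 0.20.

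Comparison of the genotypes asked which members differed between the 28 PLK2null and the 13 p53null tumors. Of the 36 members, 7 were higher in PLK2null tumors and none was lower. The test was limma's on log2(value + 1), and the p-values were adjusted by Benjamini and Hochberg's method over all 17208 genes, with a threshold of 0.05. Across all those genes 24.3% were higher and 15.3% lower, so 7 of 36 higher is a share no larger than the background. At an unadjusted p under 0.05, 12 members differed. The 24.3% and 15.3% of all genes called after adjustment pass that threshold too, so 12 of 36 is no larger than the background. The difference was positive for 30 members, with a median of 0.55 on the log2 scale against 0.10 for all genes. The share of positive genes overall was not counted either, and most members moved together between tumors, so the 30 are not separate observations. Under median-of-ratios rescaling, in which each tumor is divided by its median ratio to the geometric mean of all tumors, the median of all genes moved to -0.02 and the all-gene calls from 4175 higher and 2627 lower to 3381 and 3489. On that scale 29 members stayed positive, their median was 0.44 and 4 were called. With linked tumors averaged, 25 members were positive and 11 negative, with a median of 0.32 against 0.13 for all genes. Leaving out p53null-5317 gave 27 positive members and a median of 0.35. Leaving out p53null-7435 gave 33 and 0.73, so the shift depended on single tumors.

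The cGAS and STING genes were among the members that rose. Mb21d1 had a lowest, median and highest level of 75.9, 307 and 833 in PLK2null tumors and of 15.8, 158 and 335 in p53null tumors. The difference was 1.30 ± 0.33 (SE) on the log2 scale (limma adjusted p = 0.00175), and the ranges overlapped. Tmem173 ran from 809 through 1747 to 3895 in PLK2null and from 369 through 998 to 3005 in p53null tumors, a difference of 0.57 ± 0.23 (limma adjusted p = 0.0414). The p53null maximum of Tmem173 was T11.

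Irf1, a factor induced by interferon gamma whose promoter carries the GAS core shown above, ran from 751 through 2675 to 5792 in PLK2null tumors and from 896 through 1393 to 2473 in p53null tumors. The difference was 0.68 ± 0.19 (limma adjusted p = 0.00364). The p53null tumors sat in a narrow band inside the PLK2null range. Irf1 overlaps the gene model Gm17334 on the other strand, and reads of the pair cannot be told apart without strand. The other factors were not called, Stat2 with 0.80 ± 0.35, Irf7 with 0.04 ± 0.50 and Irf9 with -0.03 ± 0.24.

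Among effectors, Rsad2 ran from 37.7 through 987 to 3861 in PLK2null tumors and from 47.3 through 316 to 1597 in p53null tumors, a difference of 1.51 ± 0.55 (limma adjusted p = 0.0255). The 3 highest values were the claudin-low PLK2null tumors, and without the 4 claudin-low tumors the difference was 1.1 (limma adjusted p = 0.104). Eif2ak2 ran from 703 through 1805 to 3837 and from 437 through 1080 to 2616, a difference of 0.61 ± 0.22 (limma adjusted p = 0.0253). Parp14 ran from 509 through 2359 to 10438 and from 223 through 1133 to 6718, a difference of 1.15 ± 0.40 (limma adjusted p = 0.0183). Gbp2 ran from 224 through 1149 to 8514 and from 91 through 852 to 1965.2, a difference of 1.05 ± 0.43 (limma adjusted p = 0.0493), just inside the threshold.

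No ISG15-system gene or chemokine was called. Isg15 differed by -0.63 ± 0.51, Usp18 by -0.01 ± 0.58, Cxcl9 by 0.48 ± 0.54 and Cxcl10 by 0.46 ± 0.51. Scores averaged 0.03 (SD 1.03) in PLK2null and -0.49 (SD 1.48) in p53null tumors. Raised tumors were 5 of 28 and 2 of 13, and low tumors 3 of 28 and 5 of 13.

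The count rested on single tumors. Without the library labelled p53null-7435, 13 members were called, with Ddx58, Stat2, Ifit2, Oas2, Mx1, Trim25 and Xaf1 added and Tmem173 lost. In that fit 4312 of 17195 genes were higher, a smaller share than 13 of 36. Without p53null-5317 or without p53null-2225L, 3 were called, and without p53null-2153L, 4. Among all genes 4037 of 17227, 3907 of 17219 and 3953 of 17226 were higher in those fits, larger shares than the members had. Mb21d1, Irf1 and Parp14 remained called in all 41 fits that left out a single tumor, Eif2ak2 in 39, Rsad2 in 36, Tmem173 in 22 and Gbp2 in 17. Without the 4 claudin-low tumors, Mb21d1, Tmem173 and Irf1 kept their calls and Mx1 was added. Parp14 (0.92, limma adjusted p = 0.0704), Eif2ak2 (0.51, limma adjusted p = 0.0789), Gbp2 (1.04, limma adjusted p = 0.0646) and Rsad2 then missed the threshold. With linked tumors averaged, 14 PLK2null against 13 p53null, Irf1 alone was called.

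Of 28 pathway genes with enough signal, 6 were higher in PLK2null tumors and none was lower, a share of higher genes no larger than the 24.3% of all genes. These were the receptor chain Ifnar1 (0.61 ± 0.20), the kinase Tyk2 (0.91 ± 0.18), the interferon-inducing kinases Tbk1 (1.0 ± 0.19) and Ikbke (0.50 ± 0.19), and the RNA-sensing receptors Tlr3 (0.98 ± 0.32) and Tlr7 (0.76 ± 0.27). None of the 7 inhibitors was called. Of the marker lists, macrophage, dendritic cell and neutrophil lists had 1 gene higher each, the mammary epithelium list had 2 of 6 lower, and the T cell, cytotoxic lymphocyte, B cell, endothelium and fibroblast lists had none called. The summed dendritic cell markers had a median of 1512 in PLK2null and 606 in p53null tumors, with ranges of 305 to 2917 and 287 to 1622. Their part in the genotype differences was not tested.

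**Figure D4:**
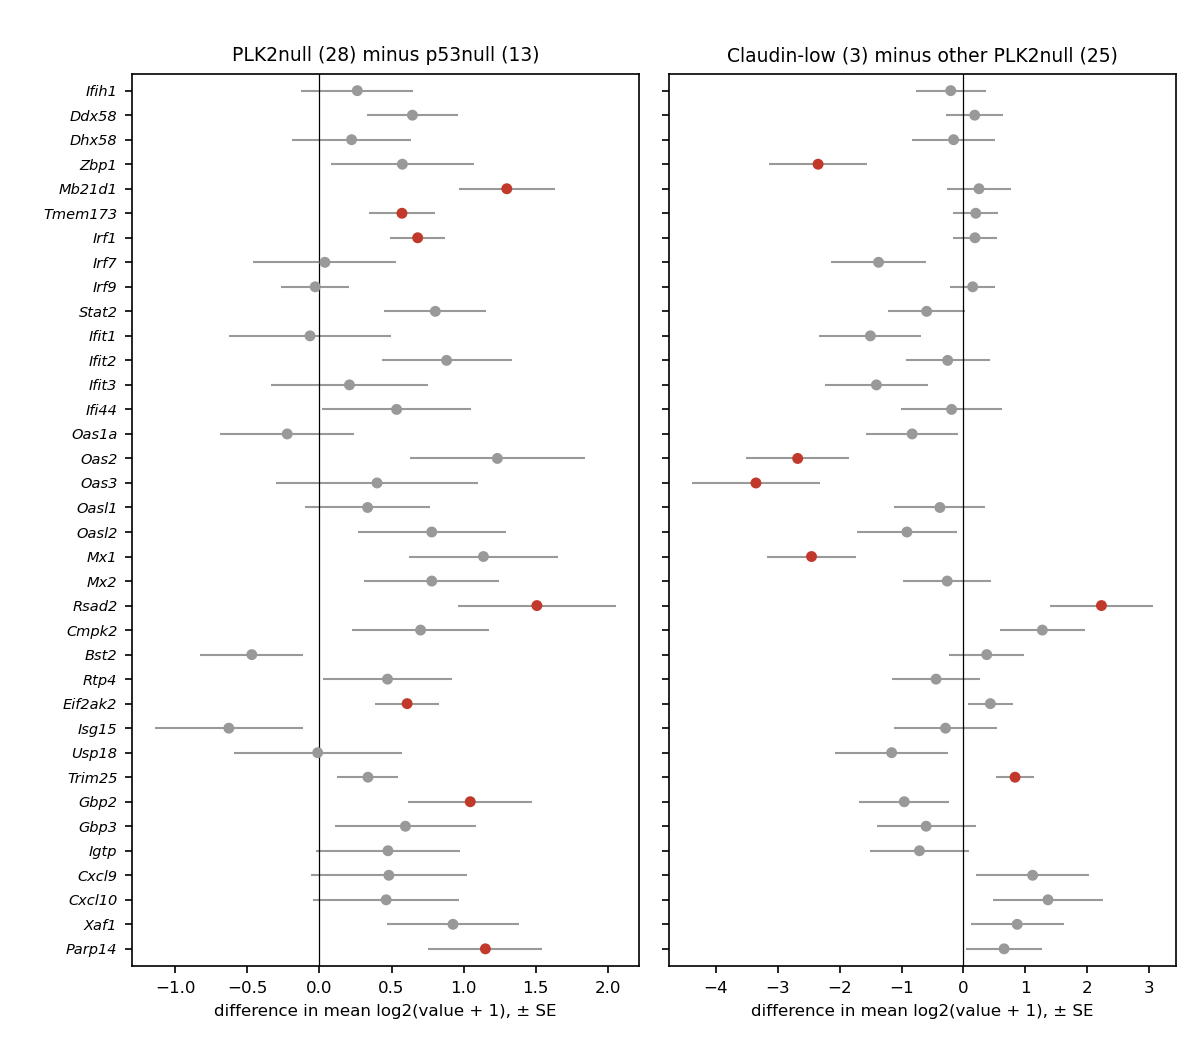
Difference in mean log2(value + 1) with its standard error for each member, PLK2null minus p53null (left) and claudin-low minus other PLK2null tumors (right), in red where the adjusted p was under 0.05. On the left the 7 red points are all positive, and on the right 4 are negative and 2 positive.

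Claudin-low PLK2null tumors were neither raised nor low by score. Members were called in both directions, at shares under those of all genes. The scores of PLK2null-743, PLK2null-733 and PLK2null-732 were -0.21, -0.25 and -0.41, near the middle of the order. Against the other 25 PLK2null tumors, 4 members were lower in these 3 tumors, Oas3, Oas2, Mx1 and Zbp1, and 2 were higher, Rsad2 and Trim25 (limma, adjusted over 17153 genes). Across all those genes 20.2% were higher and 17.1% lower, so both shares were under the background. The difference was negative for 22 members and positive for 14, with a median of -0.26 against 0.02 for all genes.

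Oas3 was at 43.7, 44.9 and 63.8 in PLK2null-732, PLK2null-733 and PLK2null-743. In the other PLK2null tumors its lowest, median and highest values were 41.5, 564 and 4514, a difference of -3.35 ± 1.03 (limma adjusted p = 0.0112). Among the others the low tumors PLK2null-1963 (41.5) and PLK2null-7748 (45.9) were at this level. Oas2 was at 137, 125 and 206 against 132, 954 and 5457 (-2.68 ± 0.83, limma adjusted p = 0.0116), and the value in PLK2null-733 was the lowest of the genotype. Mx1 was at 69.8, 73.8 and 94.8 against 48.2, 472 and 2139 (-2.45 ± 0.72, limma adjusted p = 0.00800). Zbp1 was at 256, 182 and 265 against 111, 1171 and 6241 (-2.35 ± 0.79, limma adjusted p = 0.0200). For each of these genes the claudin-low values fell at the bottom of the range and overlapped it.

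Rsad2, whose promoter with a single ISRE core is shown above, moved the other way. It lies beside Cmpk2 on chromosome 12 (build GRCm38), at chr12:26442746-26456452. It stood at 2948, 3861 and 3080 in the claudin-low PLK2null tumors, above each of the 25 others, whose lowest, median and highest values were 37.7, 844 and 2855. The difference was 2.23 ± 0.83 (limma adjusted p = 0.0359, two-sided exact permutation p = 0.0183 over 3276 splits). The exact test takes the 3 linked tumors as independent and is not adjusted over genes. For the other called members the exact permutation p was smaller, from 0.000916 (Oas2) to 0.0110 (Trim25). Cmpk2, the neighbor of Rsad2, was at 921, 1189 and 800 against a median of 442, which did not pass the test (1.27 ± 0.68, limma adjusted p = 0.146). Trim25 was at 5523, 6302 and 6783 against 1459, 3533 and 6556 (0.83 ± 0.31, limma adjusted p = 0.0343). In the same tumors Rsad2 was at its highest while Oas3 was near its lowest. The 4 lower calls held under quantile normalization and median-of-ratios rescaling. Rsad2 was 2.13 (limma adjusted p = 0.0558) under the first and 2.16 (limma adjusted p = 0.0467) under the second, and Trim25 was called under neither (limma adjusted p = 0.1002 and 0.0565). Without a filter on low values Rsad2 missed the threshold as well (limma adjusted p = 0.0504).

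**Figure D5:**
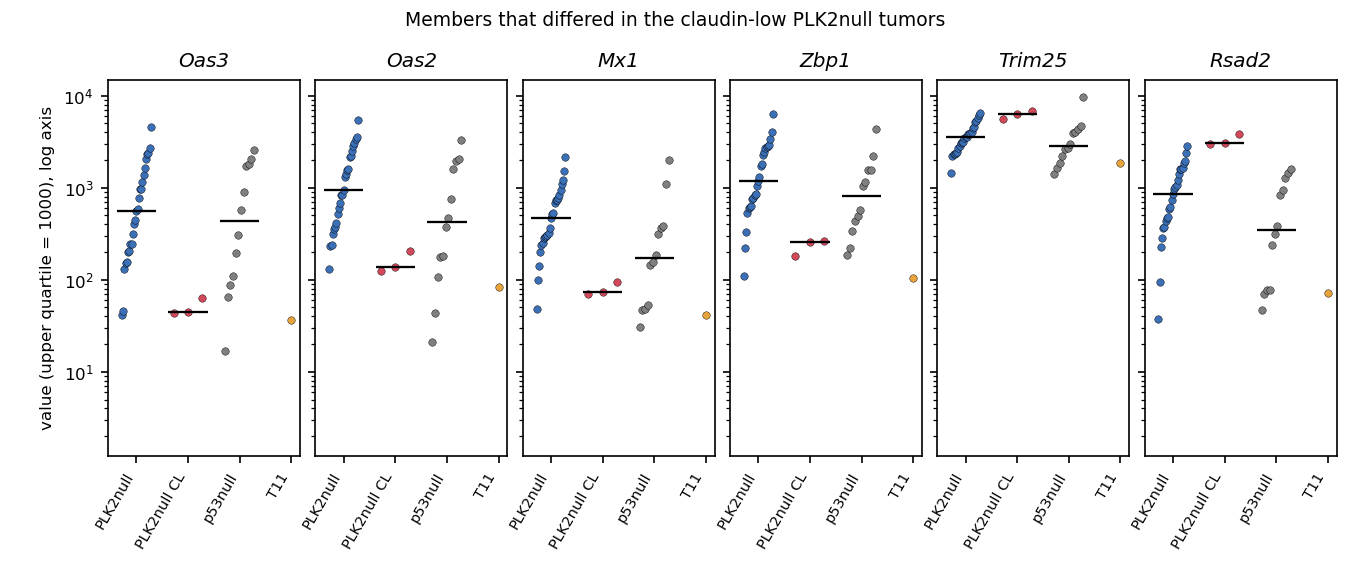
Level of the 6 members called in the claudin-low comparison (logarithmic axis) in each tumor, for other PLK2null tumors, claudin-low PLK2null tumors (CL), other p53null tumors and T11, with a line at the group median. The red points lie at the bottom for Oas3, Oas2, Mx1 and Zbp1 and at the top for Rsad2, while T11 is low in all 6.

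T11 did not share the Rsad2 level. It had Rsad2 at 72.7, Trim25 at 1864, Oas3 at 36.4, Oas2 at 82.7, Mx1 at 41.1 and Zbp1 at 105, and no test was made on this single tumor. In the fit of all 41 tumors with genotype as a covariate, which sets the 4 claudin-low tumors against the 37 others, the 4 lower members were called and Rsad2 (1.11, limma adjusted p = 0.339) and Trim25 were not.

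The 3 claudin-low PLK2null tumors formed a linked set, and whether they are independent is not known. Averaged to a single sample against 13, the differences were 2.60 for Rsad2, 0.86 for Trim25, -2.81 for Oas3, -2.18 for Oas2, -2.02 for Mx1 and -1.99 for Zbp1. With 1 sample in an arm, which is assumed to vary like the others, none of the 36 members was called by limma and 0 had an unadjusted p under 0.05, which says little about the 6 calls. Leaving out PLK2null-732 or PLK2null-733 left Mx1 alone called, and leaving out PLK2null-743 left Oas2, Oas3 and Mx1. No tumor among the other 25 changed the 6 calls when left out.

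The chemokines were not called, with Cxcl9 at 534, 425 and 1183 against a median of 346 and Cxcl10 at 521, 601 and 828 against 280. Irf7 (-1.37 ± 0.76), Ifit1 (-1.5 ± 0.82) and Ifit3 (-1.41 ± 0.83) were negative without passing the test. The DNA sensing pair did not pass the test, with Mb21d1 at 0.25 ± 0.52 and Tmem173 at 0.20 ± 0.37.

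Of 28 tested pathway genes, 7 were higher and 3 lower in the claudin-low PLK2null tumors, against 20.2% and 17.1% of all genes, so the shares were near or under the background. Ifnar1 rose by 1.97 ± 0.19 and Ifnar2 by 1.08 ± 0.25, the interferon gamma receptor chain Ifngr1 by 0.73 ± 0.25 and Il10rb, shared by the lambda interferon receptor, by 1.29 ± 0.29. Jak1 rose by 1.17 ± 0.17, Tyk2 by 1.56 ± 0.17 and Irf8, a factor of myeloid and dendritic cells, by 2.17 ± 0.40. Ifnlr1, the lambda interferon receptor of epithelial cells, fell by 3.60 ± 0.50 on the log2 scale. The adaptor Mavs and the phosphatase Ptpn2 fell by 0.53 ± 0.16 and by 1.12 ± 0.36.

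Many cell type markers also differed in the same comparison. All 6 endothelial markers were higher, with sums of 165580 to 186500 in the claudin-low PLK2null tumors against 2572 to 78025 in the other PLK2null tumors and 6876 in T11. Of 6 mammary epithelium markers, 5 were lower, with sums of 48.0 to 361 against at least 19143, and Krt14 was at 0 in 1 of the 3. All 6 T cell markers and all 4 B cell markers were higher, with T cell sums of 977 to 1874 against 62.2 to 1790 and B cell sums of 661 to 887 against 7.91 to 4616. Among the rest, 3 of 6 cytotoxic lymphocyte, 4 of 6 dendritic cell and 1 of 7 macrophage markers were higher, 3 of 5 fibroblast markers were lower and no neutrophil marker was called. These tumors matched the label in lacking claudins and epithelial markers, but carried endothelial markers at levels that none of the other 38 tumors had. T11 had an epithelial sum of 33757, nearly all from Krt8 (11057) and Krt18 (22508), while its Epcam (81.4) and Cdh1 (61.9) were far under the other p53null tumors (at least 8552 and 5114). PLK2null-7763, singled out after its values were seen, had the next highest endothelial sum, 78025, with Oas3 at 130, Mx1 at 142 and Rsad2 at 1841. The part of these cells in the member differences was not tested.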

How the data were processed

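RNA was sequenced from 41 Balb/c mammary tumors as paired reads from poly(A) libraries; strand was not stated. Per the labels, the submitters' processing notes name STAR 2.7.6a, Salmon 1.4.0, Picard 2.22.4 and SAMtools with mm10. The deposited table holds a signal per gene symbol that the authors scaled to an upper quartile of 1000. Of the nonzero values, 77.8% to 80.5% lay within 0.1 of a whole read, too few to recover counts, so log2(value + 1) was tested with limma 3.58.1 (R 4.3.3) on genes with a mean of at least 10, with Benjamini-Hochberg adjustment over all genes; this was tested on simulated data. Groups came from the titles. The study's text names T11 and the tumor line of PLK2null-743 as claudin-low. It does not name PLK2null-732 and PLK2null-733, which belong to the claudin-low group as defined here and had low Cldn3. The members, lists and tests were chosen with earlier results of these data known. Values were printed for members called in either comparison (up to 8 each), the 6 most variable members and the 4 members farthest from their median in each raised or low tumor. The lists were 38 pathway genes and markers of 9 cell types. Gene positions came from GENCODE (GRCm38) and promoters from RefSeq. P-values measure the spread between tumors, some of which are closely alike. Alternatives were other pseudocounts, filters, scalings, averaging of linked tumors and leaving out tumors; leaving out each of the other tumors in turn was added after seeing the data. A pathway gene is not reported here.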

Additional observations from a re-analysis of the deposited data

How the results depend on the processing

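For the genotype comparison, 7 members were called, against 3 under quantile normalization, 4 under median-of-ratios rescaling, 1 with linked tumors averaged and 4 without the 4 claudin-low tumors, of which 3 were among the 7. Leaving out a single tumor gave 3 to 13, the highest without p53null-7435. For the claudin-low comparison, 6 members were called, against 0 with linked tumors averaged (limma, 0 at an unadjusted p under 0.05), where 1 sample in an arm leaves little to test, and leaving out a single tumor gave 1 to 6. Averaging leaves fewer samples by construction. In the genotype comparison the calls among all 17208 genes went from 4175 higher and 2627 lower to 3354 and 1539 on averaging. The cause of these changes in the counts was not tested. Another pseudocount, a stricter filter, no filter and limma's trended fit kept both counts within 1.5 times. No called member changed direction under these settings. Median-of-ratios rescaling changed the call of 3 tumors (PLK2null-1965, PLK2null-1975 and PLK2null-1977), and pseudocount 10, quantile normalization and a median over members changed none. No paired analysis was possible because the groups share no replicate numbers. Depth limits the 10 interferon genes, each of which lay at or under 3 reads in at least 25 of 41 tumors.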
